A study of Mus musculus with 4 samples.

Results

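The genes described here encode the transcription factors TCF1 (Tcf7) and LEF1 (Lef1), the chromatin organiser SATB1 (Satb1), the 3 E proteins (Tcf3, Tcf4 and Tcf12) and the Id proteins (Id1, Id2 and Id3) of mouse regulatory T cells. They were chosen by name, and all 9 were found among the 50600 genes of the deposited tables. Tcf3 here is the gene of the E12 and E47 proteins; the same symbol was used in older work for Tcf7l1, a different gene. With the deposited exon lengths, 8 of the 9 genes stood at 1 TPM (counts scaled for exon length and for the library) or more in every library. Tcf4 was the exception.

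TCF1 and LEF1 bind DNA through an HMG box, act with beta-catenin as activators and with TLE proteins as repressors, and maintain T cell identity and the naive or resting state. E proteins are basic helix-loop-helix (bHLH) factors that bind E-box sequences as dimers. Id proteins carry the helix-loop-helix without the basic region, so they pair with E proteins and keep them off DNA. The balance between E and Id proteins shapes T cell development, and Id2 and Id3 are known to be needed for the maintenance of regulatory T cells. SATB1 folds chromatin in thymocytes and T cells, and Foxp3, the factor that defines regulatory T cells, is known to repress it.

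RNA was measured in 4 libraries, numbered replicates 1 to 4, which form the only group. They are regulatory T cells of strain C57BL/6NJ, of unknown age and with sex not collected. The labels tie all of them to the same donor record and link a protocol for differentiating CD4+ T cells, and the column names describe the cells as sorted and activated, with 72 h as the time. No label names separate animals or cultures, and some of the libraries may be technical replicates. A p-value below reflects the spread between these libraries, which also differed in sex-linked genes. With a single group there was no treated or control arm, and the comparisons are between genes within a library and between libraries.

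Library totals ran from 32648138 to 94983494 counts, lowest in replicate 4 and highest in replicate 3. Foxp3 stood at 463 ± 25.4 TPM (SD, n = 4) and all 11 regulatory T cell markers reached 1 TPM in every library. The most abundant of these markers were Il2ra at 1769 ± 120, Tnfrsf4 at 1431 ± 38.4 and Tnfrsf18 at 1141 ± 60.3 TPM. Despite the shared donor record the libraries differed in sex-linked genes: Xist was high only in replicates 1 and 2 (312 and 331 TPM), and the Y-linked gene Eif2s3y was high only in replicates 3 and 4 (49.3 and 67.7 TPM). Replicates 1 and 2 were therefore not technical replicates of the same sample as replicates 3 and 4. Replicate 1 also stood apart in the non-coding locus Gm42418, at 11891 TPM against 1555 to 4335 TPM in the others.

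Tcf7 was the most abundant of the 9 genes, followed by Tcf3 and Id1, and Tcf4 was the least abundant. The mean levels in descending order were 420 TPM for Tcf7, 232 TPM for Tcf3, 135 TPM for Id1, 54.9 TPM for Lef1, 48.99 TPM for Id3, 34.5 TPM for Id2, 13.7 TPM for Tcf12, 10.8 TPM for Satb1 and 1.10 TPM for Tcf4. Replicates 1, 2 and 3 each gave this order exactly, and replicate 4 differed from it by placing Id3 above Lef1. Among neighbours in the order, Lef1 and Id3 did not differ beyond their spread (0.18 ± 0.27 on the log2(TPM + 1) scale, above 0 in 3 of 4 libraries). The other 7 neighbouring pairs differed in the same direction in 4 of 4 libraries. The order came from the means of the same 4 libraries, so which gene of a neighbouring pair was higher on average was fixed beforehand. In all, 14 pairs of genes were compared within libraries by flipping the signs of the differences (exact permutation test, two-sided). With 4 libraries this exact test cannot go below p = 0.13, the value it gave for every pair except Lef1 and Id3 (p = 0.375). After Benjamini-Hochberg adjustment over the 14 pairs these exact permutation values were 0.135 and 0.375, so none passed 0.05, and the size of each difference against its SD is what can be read.

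**Figure D1:**
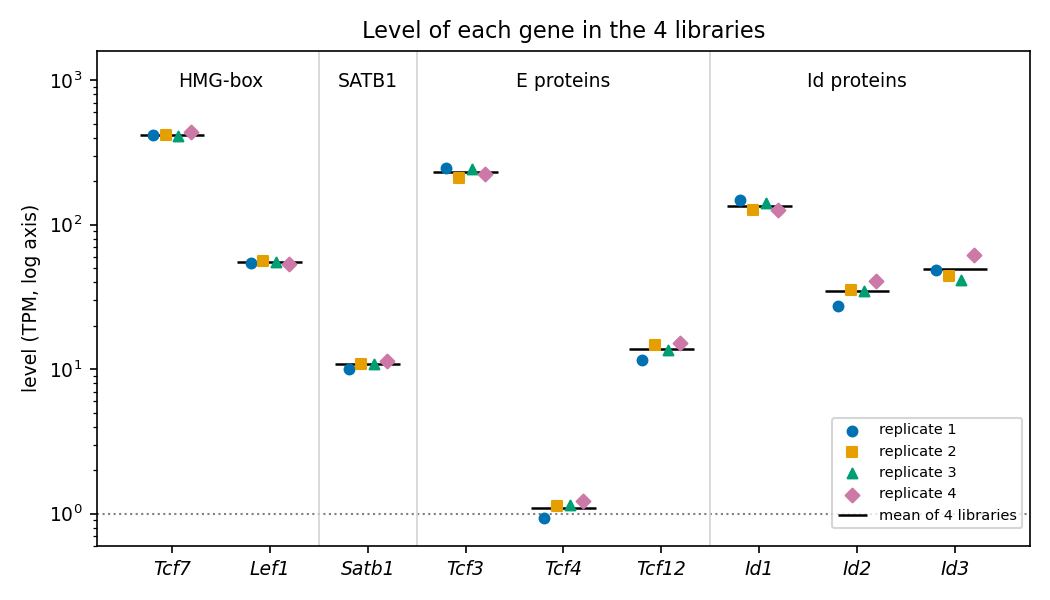
Level of each of the 9 genes (TPM, log axis) in replicates 1 to 4, with a bar at the mean of the 4 libraries and a dotted line at 1 TPM. Tcf7 lay between 409 and 437 TPM in every library, while Tcf4 lay between 0.931 and 1.22 TPM and fell under the line in replicate 1.

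Tcf7 (ENSMUSG00000000782.15; chromosome 11, 52252371 to 52283014 in mm10) measured 421, 415, 409 and 437 TPM in replicates 1 to 4. These 4 values lay within 1.07-fold of each other, and Tcf7 exceeded 97.3% of the 12114 genes that reached 1 TPM in every library. Lef1 (ENSMUSG00000027985.14; chromosome 3, 131110471 to 131224356) measured 54.7, 56.1, 55.1 and 53.6 TPM, again with no library standing apart. Tcf7 exceeded Lef1 by 2.92 ± 0.06 on the log2(TPM + 1) scale (SD, n = 4), a ratio of 7.66 between the mean levels that depended on the gene length used: it was 3.39 with the longest transcript as the length and 2.29 without length correction (CPM). Tcf7 made up 88.5 ± 0.456% of the summed TPM of both genes, or 77.2% with the longest transcript. The coefficient of variation over libraries was 2.86% for Tcf7 and 1.88% for Lef1, against a median of 9.03% over the 12114 genes, and only 1.56% of those genes varied less than Lef1.

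The HMG box shared by both proteins is shown because reads of paralogs can be lost where their sequences are identical, and reads that map to more than 1 place were not counted. The 90 coding bases most alike between them lie in a single exon of each gene, exon 7 of Tcf7 (chr11:52256958-52257047, minus strand) and exon 8 of Lef1 (chr3:131194689-131194778, plus strand), in GENCODE M21 on mm10. Capitals mark the 15 bases that differ.
Tcf7: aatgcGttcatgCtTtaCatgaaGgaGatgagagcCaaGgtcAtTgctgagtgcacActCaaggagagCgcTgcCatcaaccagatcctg
Lef1: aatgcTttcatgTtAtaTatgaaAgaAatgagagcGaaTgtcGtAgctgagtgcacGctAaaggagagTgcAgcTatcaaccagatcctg
Between the whole coding sequences the longest identical run was 17 bases. Over their longest transcripts, Tcf7 shared no run of 50 bases with any other gene annotated in GENCODE M21, and Lef1 shared 1.14% of its runs, with 42 genes. The gene Gm43352 lies antisense over 13.7% of the exon length of Lef1, and the strand setting keeps its reads apart.

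Satb1 (ENSMUSG00000023927.15; chromosome 17, 51736187 to 51833290) measured 10.04, 10.9, 10.9 and 11.5 TPM in replicates 1 to 4. The level was lowest in replicate 1 and highest in replicate 4, a spread of 1.14-fold. Its mean of 10.8 ± 0.584 TPM (SD, n = 4) exceeded 29.0% of the expressed genes. Tcf12 lay just above it, by 0.31 ± 0.10 on the log2(TPM + 1) scale in 4 of 4 libraries. Of the exon length of Satb1, 0.820% lay in exons of the non-coding gene Gm36931 on the same strand, where reads are not counted for either gene.

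Among the E proteins, Tcf3 dominated. Tcf3 (ENSMUSG00000020167.14; chromosome 10, 80409514 to 80433647) measured 247, 212, 242 and 226 TPM in replicates 1 to 4 and held 93.95 ± 0.987% of the summed TPM of the E protein genes. Its level was highest in replicate 1 and lowest in replicate 2, a spread of 1.17-fold. Tcf12, which encodes HEB, a partner of the Tcf3 products in thymocytes (ENSMUSG00000032228.16; chromosome 9, 71842688 to 72111871), measured 11.6, 14.6, 13.6 and 15.1 TPM. Replicate 1 was the lowest for Tcf12, and the other 3 lay within 13.6 to 15.1 TPM. Tcf3 exceeded Tcf12 by 3.99 ± 0.25 on the log2(TPM + 1) scale (SD, n = 4), a ratio of 16.9 between the mean levels, which became 9.39 with the longest transcript.

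The stretch of 90 coding bases most alike between Tcf3 and Tcf12, the more abundant E protein genes, is shown for the same reason; it covers the second helix of the bHLH domain, through which E proteins pair with each other and with Id proteins. It spans exons 18 and 19 of Tcf3 (chr10:80410246-80412887, minus strand, with the intron between) and exons 19 and 20 of Tcf12 (chr9:71849897-71856365, minus strand). Capitals mark the 15 bases that differ.
Tcf3: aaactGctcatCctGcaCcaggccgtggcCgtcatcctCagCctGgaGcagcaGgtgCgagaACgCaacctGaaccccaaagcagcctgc
Tcf12: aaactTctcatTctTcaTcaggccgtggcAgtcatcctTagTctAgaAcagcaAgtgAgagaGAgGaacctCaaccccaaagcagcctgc
The longest identical run between these coding sequences was 18 bases. Tcf3 and Tcf4 were closer still, with 77 of 90 bases identical in their most similar stretch and a longest identical run of 23 bases. Tcf3 shared no run of 50 bases with another annotated gene, and 0.240% of the runs of Tcf12 were shared, with 261 genes.

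Tcf4, the E protein gene that is high in plasmacytoid dendritic cells and B lineage cells (ENSMUSG00000053477.16), was near the threshold of expression. It measured 0.931, 1.12, 1.14 and 1.22 TPM in replicates 1 to 4, lowest in replicate 1, from 335 to 920 counts per library. These counts put it above the floor of 3 counts in every library, at a low level. Tcf12 exceeded it by 2.80 ± 0.08 and Tcf3 by 6.79 ± 0.16 on the log2(TPM + 1) scale (SD, n = 4). Adding 1 before taking logarithms lowers such differences for a gene this low. The ratios between the mean levels were 12.5 and 210 in TPM with the deposited length, and 9.62 and 90.3 with the longest transcript.

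All 3 Id genes were expressed, and Id1 was the highest. Id1 (ENSMUSG00000042745.9; chromosome 2, 152736251 to 152737410) measured 148, 127, 141 and 125 TPM in replicates 1 to 4, higher in replicates 1 and 3 than in 2 and 4. Id3 (ENSMUSG00000007872.3; chromosome 4, 136143497 to 136145755) measured 48.3, 44.1, 41.7 and 61.9 TPM, with replicate 4 above the other 3. Id2 (ENSMUSG00000020644.8; chromosome 12, 25093801 to 25096092) measured 27.3, 35.2, 34.98 and 40.6 TPM, lowest in replicate 1 and highest in replicate 4. Id1 exceeded Id3 by 1.46 ± 0.32 and Id2 by 1.95 ± 0.33, and Id3 exceeded Id2 by 0.49 ± 0.26 (log2(TPM + 1), SD, n = 4), each in 4 of 4 libraries. Id1 held 61.9 ± 4.94% of the summed TPM of the Id genes.

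Id1 and Id2 had the most similar 90-base stretch among the Id genes, within the helix-loop-helix, and it is shown to set beside the E protein stretch above. It lies in exon 1 of each gene (Id1, chr2:152736545-152736634, plus strand; Id2, chr12:25095786-25095875, minus strand), and capitals mark the 16 bases that differ.
Id1: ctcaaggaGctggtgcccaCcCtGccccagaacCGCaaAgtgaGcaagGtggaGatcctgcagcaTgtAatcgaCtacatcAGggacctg
Id2: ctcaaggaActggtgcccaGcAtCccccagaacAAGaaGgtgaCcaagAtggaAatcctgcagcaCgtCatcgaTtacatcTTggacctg
The longest identical run between their coding sequences was 11 bases, shorter than the 15 bases shared by Id2 and Id3. Id1 and Id3 shared no run of 50 bases with another annotated gene, and Id2 shared 0.417% of its runs with Gm6175 alone.

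With the deposited lengths the summed E protein and Id transcripts were of similar size, but the ratio depended on the length used. The E protein genes together measured 247 ± 14.9 TPM and the Id genes 219 ± 9.38 TPM (SD, n = 4), a ratio of 1.16, 1.10, 1.18 and 1.06 in replicates 1 to 4. The mean ratio of 1.13 became 1.57 with the longest transcript and 4.10 in CPM. Each sum rested mostly on a single gene, Tcf3 for the E proteins and Id1 for the Id proteins. No test was made of these sums, and transcript ratios are not protein ratios. In bulk RNA, a lower level in each cell and fewer cells with the transcript cannot be told apart, for any gene here.

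Parts of the order also depended on the gene length used. The deposited length of a gene is the sum of all its exons in GENCODE M13: for Lef1, Tcf12, Satb1 and Tcf4 it was 2.40, 2.47, 3.05 and 3.19 times the longest single transcript in GENCODE M21. With the longest transcript as the length, Lef1 measured 104 ± 2.12 TPM, Tcf12 26.7 ± 3.03 TPM, Satb1 26.1 ± 1.32 TPM and Tcf4 2.78 ± 0.298 TPM (SD, n = 4). Tcf4 then also reached 1 TPM in every library, at 2.36 to 3.06 TPM. Tcf7 measured 353 ± 9.82 TPM and Tcf3 251 ± 17.9 TPM, still the highest of the 9 in every library. Id1 then measured 107 ± 8.84 TPM and no longer differed from Lef1 (0.03 ± 0.12 on the log2(TPM + 1) scale, above 0 in 2 of 4 libraries). Id2 measured 17.6 ± 2.73 TPM, below Tcf12 in 4 of 4 libraries, whereas it was above Tcf12 in 4 of 4 with the deposited length. For Id2 these lengths come from annotations that differ: its longest transcript in GENCODE M21 has 1969 bases, more than the 1270 bases over which its reads were counted. With the shorter of both lengths for every gene, Id2 measured 26.7 ± 4.14 TPM and Tcf12 26.2 ± 2.95 TPM, a difference of 0.02 ± 0.08 (log2(TPM + 1), above 0 in 2 of 4 libraries). Tcf12 and Satb1 no longer differed beyond their spread (0.03 ± 0.10). The ratio of summed E protein to summed Id transcripts was 1.49 with the shorter of both lengths.

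**Figure D2:**
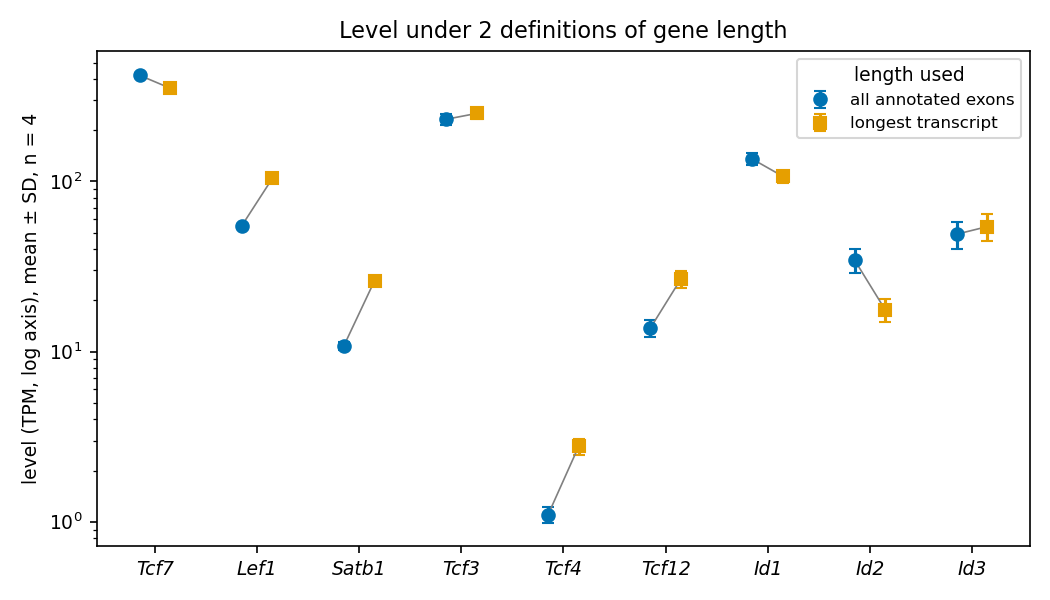
Mean level of each gene (TPM, log axis; bars, SD over 4 libraries) with the deposited length (all exons in GENCODE M13) and with the longest transcript in GENCODE M21. Satb1 moved from 10.8 to 26.1 TPM and Id2, whose M21 transcript is longer than its deposited length, from 34.5 to 17.6 TPM, while Tcf7 and Tcf3 stayed the highest with either length.

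None of the 9 genes was called as more variable between libraries than genes of like abundance. In edgeR's one-sided goodness-of-fit test with Benjamini-Hochberg adjustment over 13478 genes, 51 genes (0.378%) were called at an adjusted p under 0.05 and 0 of these 9. Before adjustment 1 of the 9, Id3, had a p under 0.05 (0.0257 by the same edgeR test), where 5.97% of all tested genes did. The edgeR adjusted p was 0.714 for Id3 and 1.00 for each of the other 8. With DESeq2's size factors and dispersion trend 61 genes were called, and again 0 of the 9. A p above the threshold does not show that a level was equal in all libraries.

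Tcf7, Lef1, Satb1, Tcf3 and Id1 had a coefficient of variation below the median of the expressed genes, at 1.88 to 8.03%. Id3 and Id2 had the highest values, 18.4% and 15.8%, and neither was called against genes of like abundance. The high value of Id3 in replicate 4 decided its spread: without replicate 4 the mean was 44.7 ± 3.35 TPM, against 48.99 ± 9.00 TPM over all 4 libraries. Replicate 4 was the highest library for 6 of the 9 genes (Tcf7, Satb1, Tcf4, Tcf12, Id2 and Id3), and it had the fewest counts. Replicate 1, the library with the most Gm42418, was the lowest for Satb1, Tcf4, Tcf12 and Id2 and the highest for Tcf3 and Id1. The share of all genes that were highest in replicate 4 or lowest in replicate 1 was not counted. These counts are therefore not read as particular to the 9 genes. The part of depth or of Gm42418 in these values was not tested. Satb1 and Tcf4 were higher in both libraries with high Eif2s3y (replicates 3 and 4) than in both with high Xist, by little between replicates 2 and 3 (10.86 against 10.89 TPM for Satb1, 1.12 against 1.14 TPM for Tcf4). The other 7 genes did not separate the libraries this way. The share of all genes that do was not counted, so the split is not read as a trait of these genes. The part of sex in these values was not tested.

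**Figure D3:**
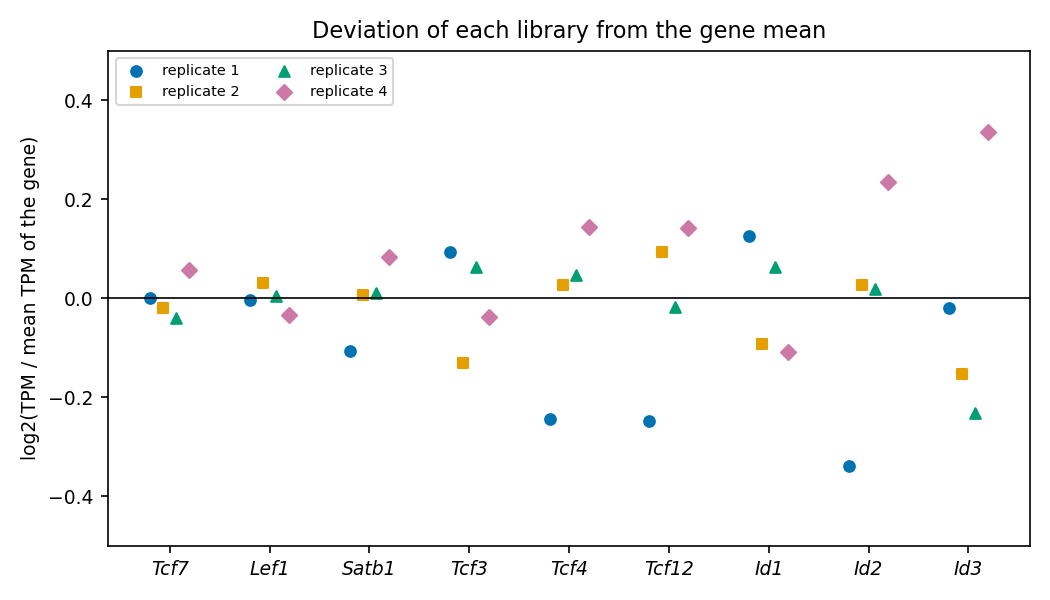
Deviation of each library from the mean of the gene, as log2 of TPM over the mean TPM, for the 9 genes in replicates 1 to 4. Lef1 and Tcf7 stayed close to 0 in every library, and the widest points were Id3 in replicate 4 (61.9 TPM against a mean of 48.99 TPM) and Id2 in replicate 1 (27.3 TPM against 34.5 TPM).

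**Figure D4:**
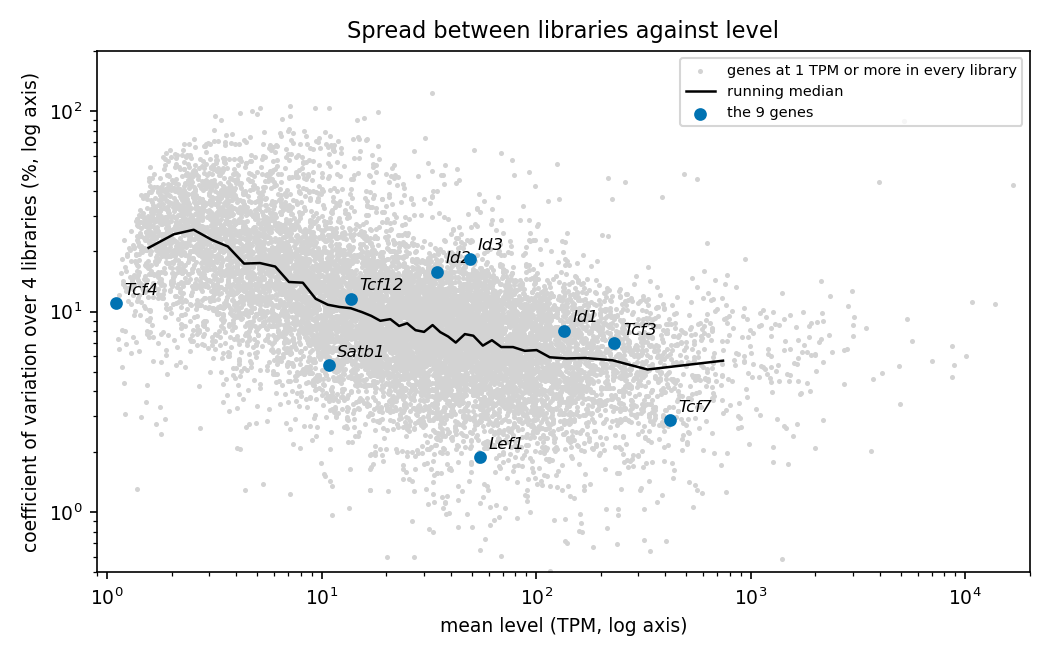
Coefficient of variation over 4 libraries (percent, log axis) against mean level (TPM, log axis) for the 12114 genes at 1 TPM or more in every library (grey), their running median (line) and the 9 genes (blue). Lef1 (1.88%) and Tcf7 (2.86%) lay below the median line and Id3 (18.4%) and Id2 (15.8%) above it.

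The other genes of these pathways were read from fixed lists, described by how many reached 1 TPM in every library and by their median level. Of all 50600 genes 12114 reached it, with a median of 26.2 TPM among those that did. The closest relatives of the 9 genes were low or without counts. Tcf7l1 was the only other TCF/LEF gene at 1 TPM in every library, at 2.45, 1.79, 1.65 and 1.62 TPM in replicates 1 to 4. Tcf7l2 averaged 0.314 TPM, and Id4 had no count in any library.

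Of 20 other bHLH genes, 3 reached that level throughout, 9 were without a count, and the median was 0.0532 TPM. Bhlhe40, a repressor induced by T cell receptor signalling, stood at 360 ± 16.8 TPM (SD, n = 4). Lyl1, which pairs with E proteins in blood progenitors, stood at 18.1 ± 3.07 TPM and was lowest in replicate 4, at 13.7 TPM. Tal2 stood at 2.37 ± 0.244 TPM, while Tal1 had no count in replicates 1 and 3. Ascl2, an inducer of the follicular helper programme, had 67 of its 73 counts in replicate 3.

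Most genes of the beta-catenin and TLE lists were expressed. The beta-catenin list held regulators of beta-catenin, inhibitors among them, as well as partners, so its count does not describe coactivators alone. Of its 15 genes, 14 reached 1 TPM in every library (median 17.9 TPM), and Pygo1 was the exception. Beta-catenin itself (Ctnnb1) led at 253 ± 12.9 TPM, followed by the kinases Gsk3a at 202 ± 7.85 TPM and Csnk1a1 at 111 ± 9.53 TPM. Axin2, a feedback inhibitor commonly read as a target of beta-catenin and TCF, was low, at 2.76, 3.40, 5.17 and 4.56 TPM in replicates 1 to 4. All 6 TLE family corepressor genes found reached 1 TPM in every library, led by Aes, a short family member that lacks the repressive domain, at 408 ± 24.3 TPM, by Tle3 at 63.5 ± 3.36 TPM and by Tle4 at 20.2 ± 1.51 TPM (median 18.1 TPM).

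Cofactors and regulators of E and Id proteins were also present. Of 7 E protein cofactor genes 5 reached 1 TPM in every library (median 18.3 TPM). Among them were the acetyltransferases Kat2a at 101 ± 2.92, Ep300 at 25.7 ± 1.48 and Kat2b at 21.7 ± 1.45 TPM. Of the ETO family genes, Cbfa2t2 stood at 16.8 ± 1.17 TPM, while Runx1t1 and Cbfa2t3 had no count. All 7 genes of the enzymes that stabilise or degrade Id and E proteins reached 1 TPM in every library (median 100.5 TPM). They included the proteolysis regulators Cdc20 at 388 ± 42.6 and Fzr1 at 127 ± 6.60 TPM, and Usp1, which removes ubiquitin from Id proteins, at 107 ± 9.72 TPM. Among signalling genes known to act upstream of Id genes 12 of 13 did (median 24.8 TPM; Smad9 was the exception), led by the T cell receptor response genes Egr3 at 124 ± 7.96 TPM, Egr1 at 115 ± 9.96 TPM and Egr2 at 84.8 ± 6.73 TPM.

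T cell genes associated with TCF1 and LEF1 were mostly present: 11 of 13 reached 1 TPM in every library (median 21.8 TPM), and Prdm1 and Cd8a did not. Ccr7, the lymph node homing receptor, measured 717, 611, 663 and 533 TPM in replicates 1 to 4, Foxo1 averaged 62.3 ± 4.82 TPM and Bach2 59.4 ± 1.64 TPM. The list was uneven in level: Slamf6 measured only 3.34 to 6.07 TPM, and Prdm1, which encodes the effector regulator BLIMP1, lay at 0.237 to 0.545 TPM. Of 12 E protein targets 9 reached 1 TPM in every library (median 65.8 TPM), led by Cd4 at 557 ± 21.8, Cdkn1a at 517 ± 12.8 and Socs1 at 407 ± 31.8 TPM, while Rag2 and Ptcra, targets in early thymocytes, had no count. In edgeR's test 0 of the 103 genes tested on the 19 lists, the 9 genes and the cell type markers included, had an adjusted p under 0.05, against 0.378% of all genes.

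Markers of other cell types, most of them types in which 1 or more of the 9 genes is known to be high, were also read; their part in the levels above was not tested. Of 8 plasmacytoid dendritic cell markers 4 reached 1 TPM in every library, Pacsin1 at 21.7 ± 1.10, Spib at 8.89 ± 1.38, Lair1 at 4.12 ± 1.04 and Cox6a2 at 1.67 ± 0.389 TPM, while the defining gene Siglech had no count. The summed level of that list was 34.4 to 38.3 TPM over the libraries. The B cell list had 1 of 7, Cd79b at 5.37 ± 1.02 TPM, with no count of Blk, at most 3 counts of Ms4a1 in any library and a summed level of 5.98 to 9.51 TPM. Other genes of the B cell list were low but present: Cd79a measured 0.615 to 1.04, Ebf1 0.469 to 0.577 and Vpreb3 0.0789 to 2.57 TPM. The thymocyte list had 1 of 8, Cd8b1 at 14.4 ± 2.09 TPM, with no count of Rag2, Ptcra or Ccr9 and a summed level of 13.4 to 18.1 TPM. Dntt on that list measured 0.682 to 2.49 TPM. The NK and innate lymphoid list had 2 of 8, Rora at 16.2 ± 1.88 and Eomes at 1.96 ± 0.496 TPM, with no count of Ncr1 and a summed level of 16.9 to 21.03 TPM. The endothelial and stromal list had 1 of 8, Pecam1 at 9.37 ± 0.343 TPM, with no count of Cdh5 or Cldn5 and a summed level of 10.4 to 11.5 TPM. Its collagen genes were low but present, Col1a1 at 0.195 to 0.986 and Col1a2 at 0.417 to 0.953 TPM.

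**Figure D5:**
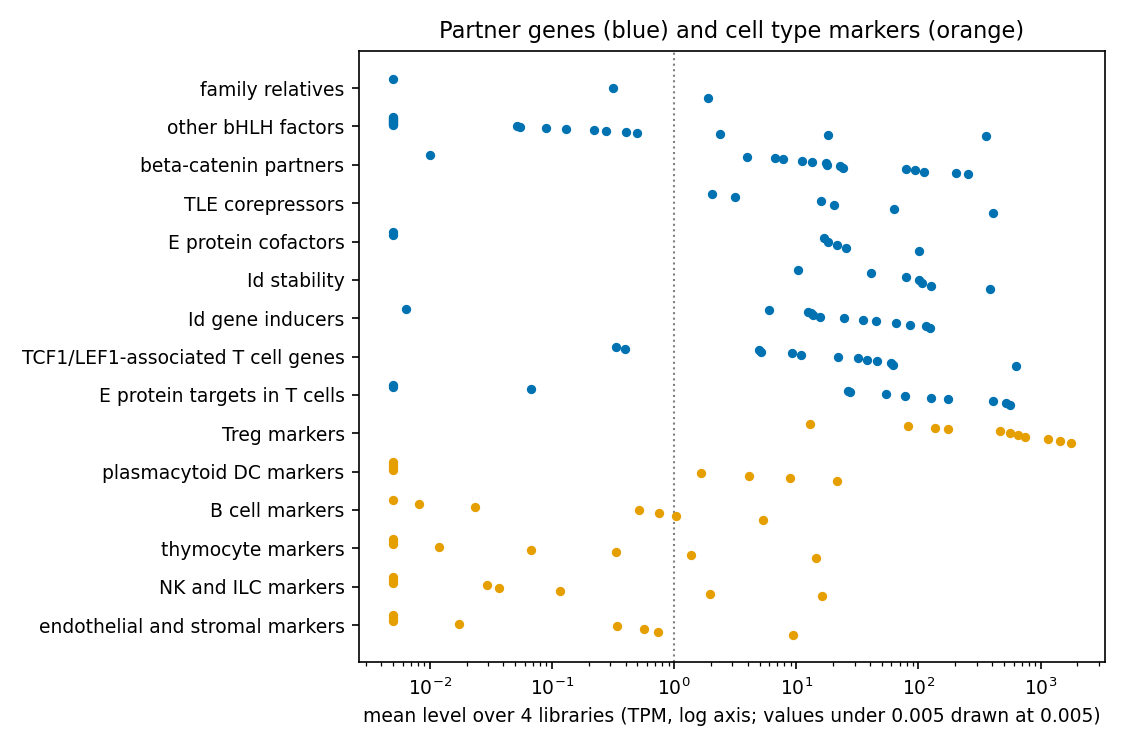
Mean level over 4 libraries (TPM, log axis; values under 0.005 drawn at 0.005) of each gene on the lists of relatives, partners, regulators and targets (blue) and of cell type markers (orange), with a dotted line at 1 TPM. Nearly the whole beta-catenin list and all regulatory T cell markers lay to the right of the line, and most markers of other cell types lay to its left.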

How the data were processed

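RNA-seq libraries of 4 samples were analysed as a single group. The labels give total RNA as the assay but link a library protocol named for poly(A)+ RNA. The authors deposited raw gene counts, not normalized. Per the file headers, featureCounts 1.4.6-p4 counted STAR alignments against GENCODE M13, in pairs and with strand setting 2; the labels name mm10. No source used here gives the STAR settings. Symbols came from GENCODE M21, by identifier without version, and matched 50376 of 50600 genes. TPM used the deposited exon length, and log2 differences add 1 TPM. Variation beyond that of like genes was tested with edgeR 4.0.16 in R 4.3.3. Its goodness-of-fit test was used on a trended dispersion with only an intercept in the design. TMM factors were used, and genes were kept by filterByExpr (minimum count 10). The test was also run on counts simulated at the fitted dispersion, which cannot show that the model fits the real libraries. DESeq2 1.42.0 gave an alternative. A floor of 3 counts equals 0.0316 to 0.0919 CPM, and covers counting error only. Sequences were read from GENCODE M21 transcripts. The genes and the 19 lists were chosen with earlier results of these data known; 2 genes of these lists are not reported here and were left out of their lists. All 9 genes are named, with the 3 highest of each list of relatives, partners, regulators and targets and of the regulatory T cell markers. Also named are Foxp3 and the markers of other cell types at 1 TPM or more in every library. A few other genes, most of them low, were singled out after their values were seen. No genes of like pattern were sought, since 4 libraries are too few.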

Additional observations from a re-analysis of the deposited data

Results flagged for a closer look

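Of 55 values examined, 2 had a single library standing far off by Dixon's gap-to-range test, where chance alone picks out about 1 in 20, and none was among the 9 genes. Foxo1 was highest in replicate 2, at 69.5 TPM, and Rora was highest in replicate 2, at 19.0 TPM.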

How the results depend on the processing

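In the test of excess variation, the 51 calls became 931 with a common dispersion, and 17 to 56 when each library was left out in turn (17 without replicate 1, 56 without replicate 2, 23 without replicate 3 and 33 without replicate 4). The other 5 settings gave 38 to 67 calls. None of the 9 genes was called under any of the 10 alternatives, where the smallest edgeR adjusted p was 0.658. Without length correction, in CPM, Id1 minus Lef1 reversed to -1.60 and Id2 minus Tcf12 to -2.21 (log2), and with the longest transcript Id2 minus Tcf12 was -0.58. The other pairs kept their sign under every alternative run. With the longest transcript the level was 353 TPM for Tcf7, 104 for Lef1, 26.1 for Satb1, 251 for Tcf3, 2.78 for Tcf4, 26.7 for Tcf12, 107 for Id1 and 17.6 for Id2. With short and mitochondrially encoded genes left out of the denominator it was 445 TPM for Tcf7, 58.0 for Lef1 and 11.4 for Satb1. The ratio of E protein to Id sums, chosen after seeing the data, was 1.57 with the longest transcript, 1.49 with the shorter of both lengths (also chosen after seeing the data) and 4.10 in CPM. At 2 TPM in every library, 0 family relatives and 1 NK and innate lymphoid marker were expressed; at 0.5 TPM, 2 B cell and 2 thymocyte markers were. No paired analysis was possible because a single group leaves no replicate numbers shared between groups; genes were compared within libraries. Gene counts cannot show which isoform was made.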
